A study of Homo sapiens with 9 samples.

Results

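The genes described here encode the nuclear subunits and assembly factors of mitochondrial complex I (NADH:ubiquinone oxidoreductase). Members were the rows of the RNA tables whose gene name, or one whole name of a joint row, began with NDUFA, NDUFAB, NDUFAF, NDUFB, NDUFC, NDUFS or NDUFV followed by a number. There were 50 such rows among 23200 named features. Of these, 45 are single protein-coding genes and 1 is a joint row of NDUFC2, the readthrough NDUFC2-KCTD14 and KCTD14. The remaining 4 are 3 antisense transcripts (NDUFA6-AS1, NDUFB2-AS1 and NDUFV2-AS1) and the pseudogene NDUFAF4P1. A mean of at least 1 FPKM (fragments per kilobase, adjusted for the total of the library) over the libraries was reached by 47 rows.

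RNA was sequenced from CA46, an established human B lymphocyte line from Burkitt lymphoma. The cells had been infected for 48 h with a virus carrying a non-targeting control or a Myc shRNA, and before harvest they received either PBS or dimethyl succinate (DMS, a succinate ester that enters cells) at 10 mM for 20 h. Each of the 4 combinations was 1 library, so no group had a replicate, and all cells had been infected with a virus. The sources used here name neither the shRNA sequence nor separate cultures. The study asked whether added succinate raises promoter H3K4 trimethylation in cells with depleted MYC, and its chromatin samples were not analysed here.

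Complex I is the entry point of electrons from NADH into the respiratory chain. Its peripheral arm, in the mitochondrial matrix, holds the flavin and iron-sulfur clusters that pass electrons to ubiquinone, and its membrane arm pumps protons. The core subunits carry out catalysis, the accessory subunits surround and stabilise them, and assembly factors join the parts and are not kept in the finished enzyme. The core subunits of the membrane arm are encoded by mitochondrial DNA. They were looked for by name among the features, and 0 rows were found. Proliferating B lymphoma cells draw on the respiratory chain both for ATP and for re-oxidising NADH.

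MYC itself was at 1868 FPKM with the control virus in PBS and 1651 FPKM with the control virus in DMS. It was at 17.1 FPKM with the Myc shRNA in PBS and 625 FPKM with the Myc shRNA in DMS, 0.913% and 37.9% of control in the same medium. The Myc shRNA library in DMS thus held far more MYC mRNA than the one in PBS, and this stands beside every comparison with that library. All 6 B cell markers were detected in every library, with a summed level of 1493 to 2145 FPKM in control and 4194 to 6402 FPKM in knockdown cells. Markers of other cells also moved: 5 myeloid genes summed to 7.69 and 16.6 FPKM in control and 75.3 and 116 FPKM in knockdown cells, with MPO at 0 in all libraries and CD14 and CSF1R at 0 in the knockdown in PBS. The 5 epithelial or packaging-cell markers summed to 281 and 337 FPKM in control and 34.0 and 150 FPKM in knockdown cells, with KRT8 and KRT18 at 0 throughout, and 6 T cell markers summed to 8.49 to 10.6 FPKM with CD8A at 0. Their part in the results below was not tested. In bulk RNA, fewer expressing cells and less RNA per cell cannot be told apart. Depth was not given. Low values of 1 to 5 olfactory receptor rows per library put 1 FPKM at 20.9 to 23.1 fragments per kilobase, an estimate from few genes.

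Most complex I genes were lower in the Myc shRNA cells in both media, and the difference was larger in PBS. Among the 47 members above 1 FPKM, 45 were below control in PBS, where 50.2% of all 11188 genes tested were, and 2 above it (49.8% of all genes). In DMS 44 were below control, against 50.3% of all genes, and 3 above it (49.7%). A difference of at least 2-fold downward on log2(FPKM + 1) was seen for 17 members in PBS (17% of all genes) and for 1 in DMS (3.56% of all genes), and no member was 2-fold higher in either medium (14.4% of all genes in PBS and 9.64% in DMS). The median log2 difference was -0.82 in PBS and -0.49 in DMS, while the median over all genes was 0.00 in both. The scaling itself centres the average gene, so each difference is relative to the other genes, and no measure of RNA per cell enters it. With FPKM as deposited the medians of the members were -0.96 in PBS and -0.60 in DMS. The all-gene median of the knockdown fit was then -0.11. Both knockdown libraries lay below both control libraries for 42 members, against 41.9% of all genes tested, and above them for 2, NDUFB5 and NDUFA6-AS1 (42.2% of all genes). The remaining 3, NDUFS4, NDUFB1 and NDUFAF7, overlapped.

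**Figure D1:**
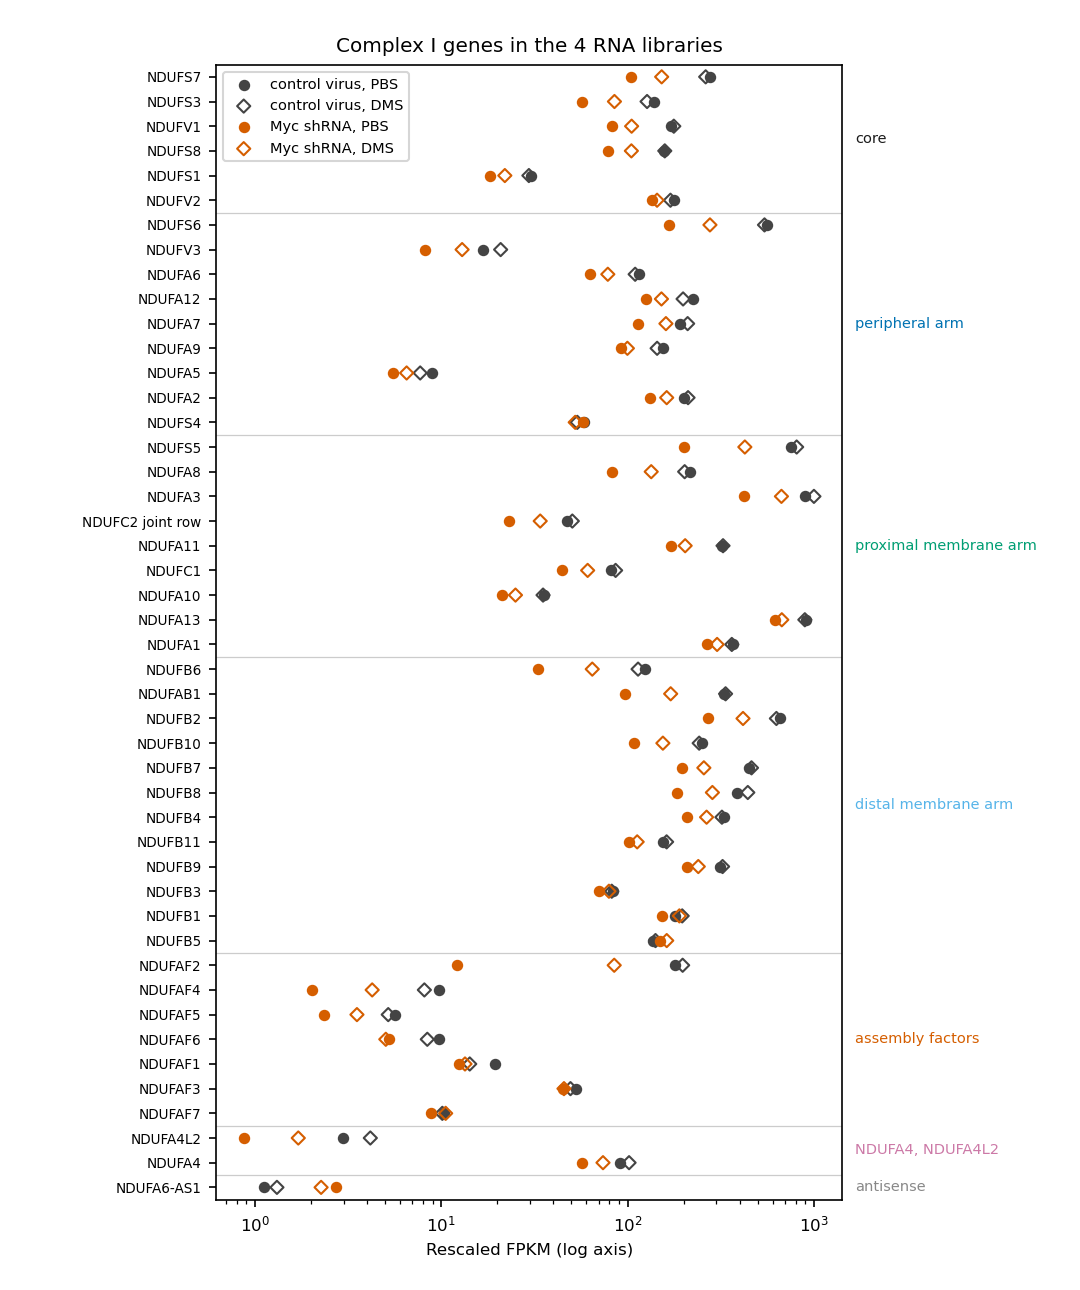
Rescaled FPKM (log axis) of 46 complex I rows above the 1 FPKM minimum, grouped by role. Grey symbols are control virus libraries and orange symbols Myc shRNA libraries; filled circles are PBS and open diamonds DMS, 1 library each. For most genes the orange circle is farthest left, the orange diamond lies between, and both grey symbols lie together at the right.

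Over both media the knockdown was tested with limma, with virus and medium as additive terms and Benjamini-Hochberg adjustment over all 11188 genes. By this test 33 members fell (27.8% of all genes fell) and 1 rose (27.9% of all genes rose), while 13 did not pass the threshold of 0.05. With FPKM as deposited 36 members fell (32.4% of all genes) and 1 rose (23.4% of all genes). The fit has 1 residual degree of freedom per gene, set by how far the knockdown ratios in PBS and in DMS differ. It also borrows its spread from all genes, so a p-value here reflects no more than the variation of these 4 libraries. That spread includes any knockdown difference between the media, and MYC stood at 0.913% of control in PBS and 37.9% in DMS. With 1 library per group, such a difference and technical variation cannot be told apart. With no filter on low values 16582 genes were tested, and 13 members and 8.85% of all genes fell. The estimates of the called members were the same as with the filter, so only the borrowed spread and the adjustment differed. With the medium term dropped and the control library in PBS also left out, limma called 0 members and 0% of all genes, though 9 members had an unadjusted p under 0.05. The same member counts, and again 0% of all genes, came without the control library in DMS. Without the knockdown library in PBS 30 members fell (23.1% of all genes), and without the one in DMS 39 (33.5% of all genes). Leaving out the knockdown in PBS brought the estimates of 10 of the 34 called members closer to 0 by over 1.5 times, to -1.14 for NDUFAF2, -0.87 for NDUFS5 and -0.87 for NDUFB6, and to between -0.64 and -0.32 for NDUFA3, NDUFA7, NDUFA8, NDUFB2, NDUFB8, NDUFV3 and the joint NDUFC2 row.

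Core subunits make up the catalytic part of the complex, and 7 of them are nuclear. All 7 were lower in both knockdown libraries than in both control libraries (41.9% of all genes), and 5 fell by limma (27.8% of all genes). Estimates are log2 differences from the limma fit, and 4 values stand in the order control virus in PBS, control virus in DMS, Myc shRNA in PBS and Myc shRNA in DMS. NDUFS7, which holds the last iron-sulfur cluster before ubiquinone (chromosome 19, 1383883 to 1395588, hg19), was at 276, 263, 104 and 152 FPKM. In log2 terms it fell by 1.09 (SE 0.22, adjusted p = 0.00837 by limma). NDUFS3, a subunit next to the ubiquinone-binding part, was at 138, 127, 56.8 and 85.1 FPKM and fell by 0.92 (SE 0.23, adjusted p = 0.0161 by limma). NDUFV1, which binds NADH and the flavin FMN, was at 170, 177, 82.4 and 105 FPKM, and fell by 0.89 (SE 0.19, adjusted p = 0.00978 by limma). In each of these genes the control libraries lay close together, and the knockdown in DMS lay between the knockdown in PBS and the controls.

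The iron-sulfur subunit NDUFS8 was at 157, 158, 78.7 and 105 FPKM, and it fell by 0.79 (SE 0.20, adjusted p = 0.0165 by limma). NDUFS1, the largest iron-sulfur subunit, had the lowest level of the core genes, at 30.4, 29.6, 18.2 and 21.97 FPKM, and fell by 0.56 (adjusted p = 0.0353 by limma). NDUFV2, the partner of NDUFV1 in the NADH-binding module, was at 178, 170, 136 and 144 FPKM and did not pass the threshold (-0.31, SE 0.18, adjusted p = 0.183 by limma). Its knockdown libraries still lay below both controls, but by less than the core genes named first. NDUFV1 and NDUFV2, which contact each other, stood at 48.4% and 76.2% of control in PBS; the difference between them was not tested.

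Accessory subunits of the peripheral arm had log2 differences in PBS from -1.75 to -0.02 with a median of -0.74. By limma 6 of 9 fell (27.8% of all genes). NDUFS6, a zinc-binding subunit that is added late in assembly, was at 560, 543, 166 and 277 FPKM. It fell by 1.36 (SE 0.23, adjusted p = 0.00623 by limma), and its knockdown libraries were far below both controls. NDUFS4, another late-added subunit and a frequent site of mutation in Leigh syndrome, was at 58.2, 53.8, 57.5 and 52.4 FPKM (-0.03, SE 0.18, adjusted p = 0.906 by limma). Its groups overlapped, and both media gave nearly the control level. NDUFV3 was at 16.9, 20.9, 8.16 and 12.96 FPKM and fell by 0.81 (adjusted p = 0.00882 by limma). NDUFA12, the subunit that takes the place of the assembly factor NDUFAF2, was at 224, 199, 126 and 152 FPKM and fell by 0.60 (adjusted p = 0.0418 by limma). Of the rest, NDUFA6, NDUFA7 and NDUFA9 fell, by 0.67, 0.56 and 0.63, while NDUFA2 (-0.49) and NDUFA5 (-0.41, at 5.49 to 8.89 FPKM the lowest of all subunits) did not pass.

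In the proximal membrane arm 8 of 9 rows fell by limma (27.8% of all genes), and the median log2 difference was -0.91 in PBS. NDUFS5, an accessory subunit on the intermembrane-space side (chromosome 1, 39491967 to 39500308, hg19), was at 749, 808, 199.8 and 426 FPKM. It fell by 1.41 (SE 0.26, adjusted p = 0.00697 by limma), the lowest estimate among subunits. NDUFA8, which lies on the same side, was at 217, 203, 83.0 and 134 FPKM and fell by 0.98 (adjusted p = 0.0151 by limma). NDUFA3 was among the most abundant members, at 893, 999.9, 419 and 669 FPKM, and fell by 0.83. The joint NDUFC2 row was at 47.2, 50.6, 23.0 and 34.0 FPKM and fell by 0.78, but it pools several transcripts and cannot be assigned to NDUFC2 alone. NDUFA11, NDUFC1, NDUFA10 and NDUFA13 fell by 0.79, 0.67, 0.60 and 0.48, and NDUFA1, an X-linked subunit, did not pass (-0.36, adjusted p = 0.127 by limma). NDUFA13, also known as GRIM-19, held the highest level in the control library in PBS, 903 FPKM.

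In the distal membrane arm 8 of 12 members fell by limma (27.8% of all genes) and the median log2 difference was -0.86 in PBS. NDUFB6 was at 124, 114, 33.0 and 64.7 FPKM and fell by 1.34 (SE 0.28, adjusted p = 0.00943 by limma). NDUFAB1, the mitochondrial acyl carrier protein, which also serves fatty acid synthesis and iron-sulfur cluster assembly, was at 330, 336, 97.4 and 170 FPKM. It fell by 1.36 (SE 0.24, adjusted p = 0.00646 by limma). NDUFB6 and NDUFAB1 stood at 26.7% and 29.5% of control in PBS and at 56.8% and 50.8% in DMS. NDUFB7 fell by 1.01, NDUFB2 by 0.94, NDUFB10 by 0.92, NDUFB8 by 0.85, NDUFB11 by 0.56 and NDUFB9 by 0.51. NDUFB4 (-0.46), NDUFB3 (-0.15), NDUFB1 (-0.14) and NDUFB5 (0.17) did not pass. NDUFB1, at 180, 196, 152 and 189.7 FPKM, had overlapping groups. NDUFB5 was the only subunit whose knockdown libraries both lay above control, at 136, 141, 150 and 162 FPKM, and this difference did not pass (adjusted p = 0.453 by limma). RefSeq lists named pseudogenes for 21 members, among them NDUFB4, NDUFA5, NDUFS5 and NDUFA3, and their values are uncertain to the extent that reads were shared with such copies.

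**Figure D2:**
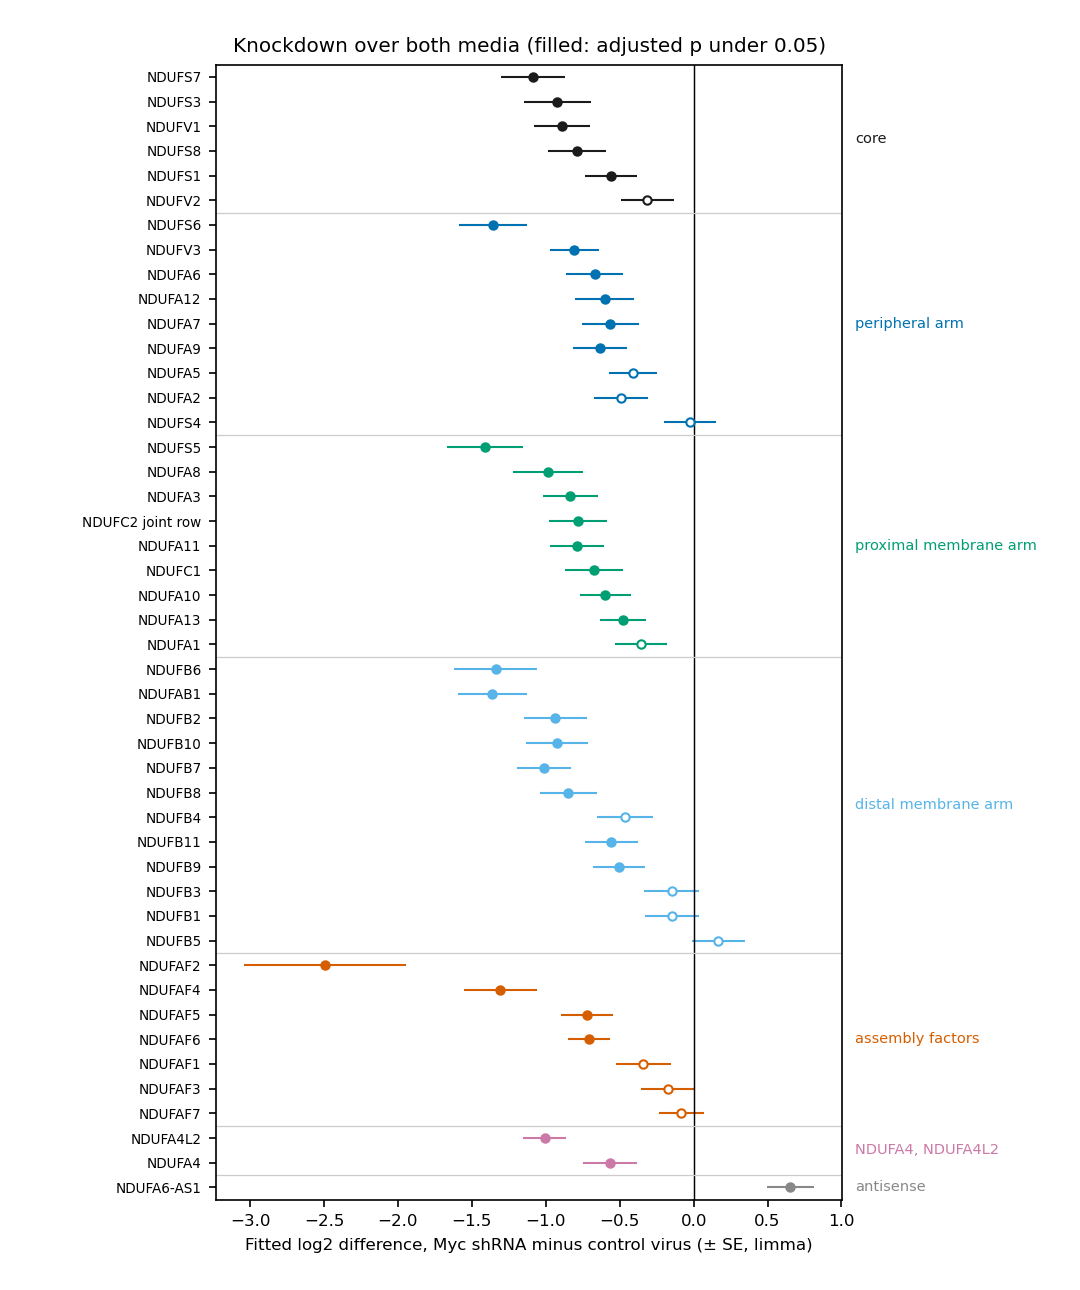
Fitted log2 difference (limma, Myc shRNA minus control virus over both media; bars are ± 1 SE) of 46 complex I rows, grouped and coloured by role. Filled points have an adjusted p under 0.05; NDUFAF2 lies farthest left at -2.49, and NDUFA6-AS1 is the only filled point above 0.

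The 7 assembly factors with NDUFAF names had a median of 10.4 FPKM in the control library in PBS, against 180.0 FPKM for the 37 subunit rows. In the same library the 14 assembly factors with other names had a median of 41.4 FPKM. Among those, C17orf89 was at 252 FPKM. NDUFAF2 had the highest level of the 7 with NDUFAF names and the lowest knockdown ratio. It is a paralogue of the subunit NDUFA12 and binds a late assembly intermediate before the NADH-binding module is attached. NDUFAF2 (chromosome 5, 60240956 to 60448864, hg19) was at 179, 198, 12.2 and 84.8 FPKM. The control libraries were alike, the knockdown in PBS stood at 6.80% of control, and the knockdown in DMS at 42.9%. The log2 difference was -3.77 in PBS, the 23rd lowest of 11188 genes, and -1.21 in DMS. It fell by 2.49 over both media (SE 0.55, adjusted p = 0.0110 by limma), with the largest SE of the 47 members. The estimate was -1.14 without the knockdown library in PBS and -3.84 without the one in DMS. This call was lost without the medium term (adjusted p = 0.0694), with no filter (adjusted p = 0.0720), and without the control library in PBS (adjusted p = 0.165) or in DMS (adjusted p = 0.192), all by limma. The adjacent gene ERCC8, a DNA repair factor named here after its values were seen, was at 5.84, 7.22, 3.33 and 4.70 FPKM and fell by 0.59 (adjusted p = 0.0138 by limma).

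The remaining assembly factors with NDUFAF names had smaller knockdown differences and lower levels in the control libraries. NDUFAF4, which works with NDUFAF3 in building the ubiquinone-binding module, was at 9.71, 8.13, 2.03 and 4.27 FPKM. It fell by 1.31 (SE 0.25, adjusted p = 0.00761 by limma), and both knockdown values were far below control. Its partner NDUFAF3 was at 53.2, 49.4, 44.9 and 45.6 FPKM and did not pass (-0.18, adjusted p = 0.425 by limma). NDUFAF5, which hydroxylates an arginine of NDUFS7, was at 5.66, 5.20, 2.35 and 3.53 FPKM and fell by 0.72 (adjusted p = 0.0155 by limma). NDUFAF6, needed for the membrane part that contains ND1, was at 9.72, 8.43, 5.25 and 5.05 FPKM and fell by 0.71 (adjusted p = 0.00844 by limma). It was one of 3 members with no higher level in DMS than in PBS in the knockdown. NDUFAF1, a member of the membrane-arm assembly complex, was at 19.5, 14.2, 12.5 and 13.4 FPKM (-0.34, adjusted p = 0.161 by limma). NDUFAF7, a mitochondrial arginine methyltransferase, was at 10.4, 10.1, 8.78 and 10.6 FPKM (-0.08, adjusted p = 0.668 by limma), with overlapping groups.

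Assembly factors with names outside the NDUF rule were also mostly lower in knockdown cells. Of 14 rows on a list chosen by function, 11 fell and 0 rose by limma (27.8% and 27.9% of all genes), with a median log2 difference of -1.03 in PBS and -0.60 in DMS. Among them C17orf89, now NDUFAF8, the stabiliser of NDUFAF5, was at 252, 242, 77.9 and 137 FPKM and fell by 1.25 (adjusted p = 0.00842 by limma). TMEM186, of the membrane-arm assembly complex, was at 30.1, 28.3, 8.57 and 17.7 FPKM and fell by 1.18, whereas ACAD9 and TMEM126B of the same complex fell by 0.73 and 0.69. COA1, also assigned to it, did not pass, at 39.96, 44.1, 43.0 and 40.5 FPKM. FOXRED1 fell by 1.17, TMEM70 by 1.15, the joint row of ECSIT and ZNF653 by 1.10, TMEM261 by 0.94, PYURF by 0.88, TIMMDC1 by 0.62 and the iron-sulfur factor NUBPL by 0.50. TMEM126A (-0.40) and ATP5SL (-0.44) did not pass.

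The last members fall outside the complex proper. NDUFA4, first described as a complex I subunit and now assigned to complex IV, was at 91.6, 102, 57.1 and 73.8 FPKM and fell by 0.57 (adjusted p = 0.0401 by limma). Its paralogue NDUFA4L2, a target of hypoxia-inducible factor, was at 2.99, 4.17, 0.881 and 1.71 FPKM. It fell by 1.01 (SE 0.15, adjusted p = 0.00431 by limma); its mean lies near the filter and its row shares a locus with SHMT2. NDUFA6-AS1 was at 1.12, 1.32, 2.72 and 2.27 FPKM and was the only member to rise (0.65, SE 0.16, adjusted p = 0.0152 by limma), also near the filter. The call was lost without either control library (adjusted p = 0.197 and 0.166 by limma). NDUFA6, the subunit gene beside it, fell. Below the filter lay NDUFB2-AS1 (0.917, 0.641, 0.801 and 0.722 FPKM), NDUFV2-AS1 (0.116, 0.531, 0.174 and 0.349 FPKM) and NDUFAF4P1 (0 to 0.0321 FPKM). No strand setting of the counting is stated. NDUFB2-AS1 and NDUFV2-AS1 have the same deposited span as NDUFB2 and NDUFV2, so their reads and those of these partners cannot be told apart. The spans of NDUFA6-AS1 (chromosome 22, 42486937 to 42521354) and NDUFA6 (42481530 to 42486888) do not overlap.

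**Figure D3:**
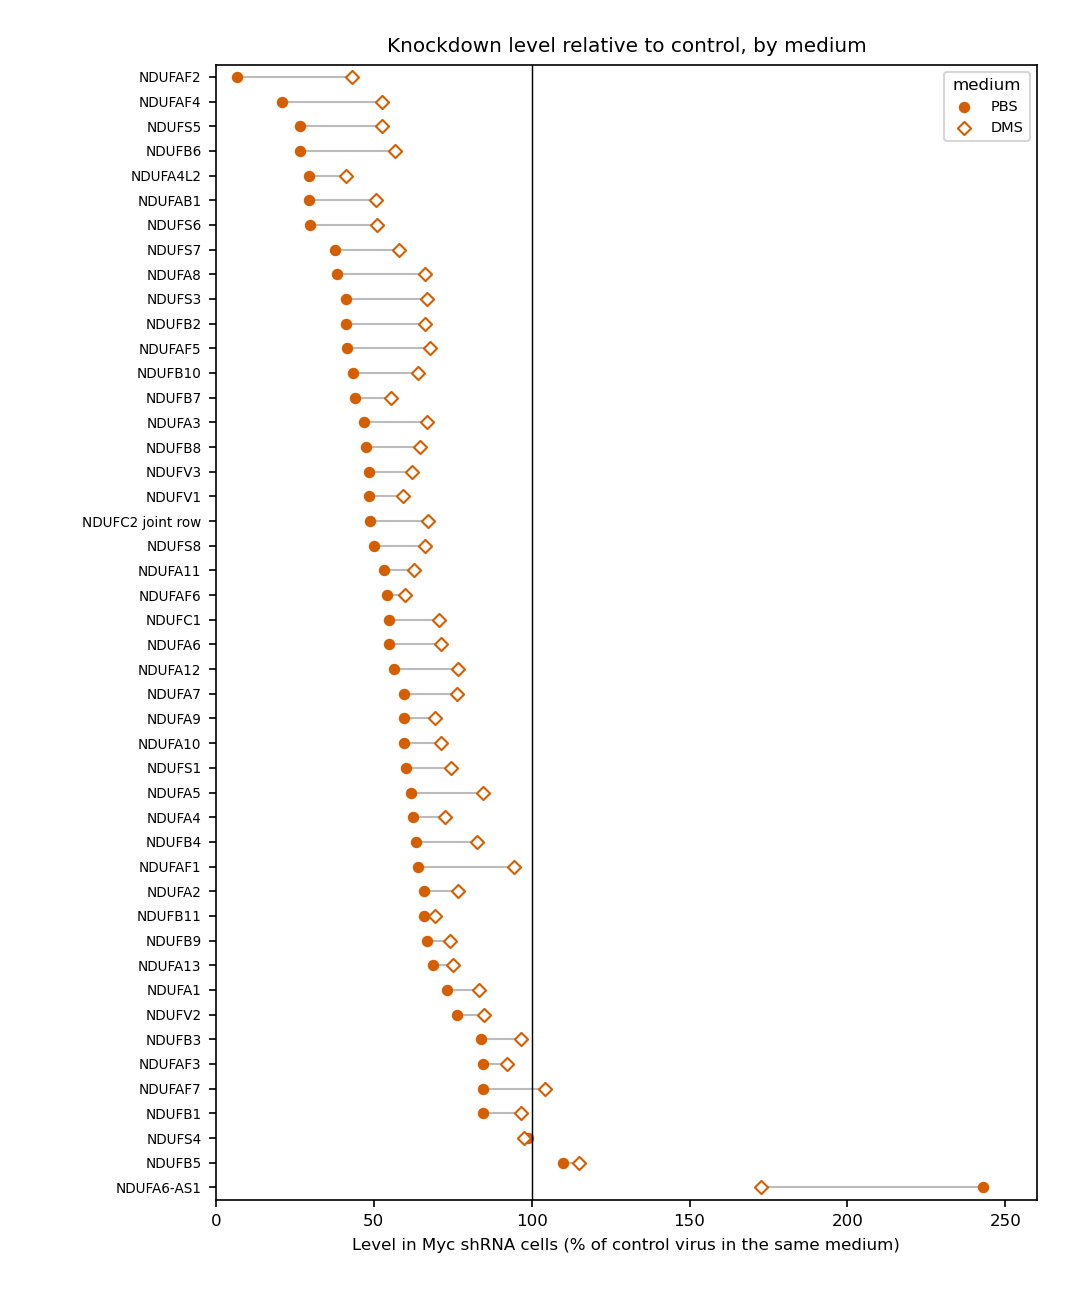
Level in Myc shRNA cells as a percentage of control virus cells in the same medium, for 46 complex I rows ordered by the PBS value. Filled circles are PBS and open diamonds DMS, 1 pair of libraries each, and the vertical line marks 100%. NDUFAF2 moves from 6.80% in PBS to 42.9% in DMS, while NDUFS4 stays near 100% in both.

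Promoter sequence was examined for the members, since MYC with its partner MAX binds the E-box CACGTG and several factors of respiratory genes bind near start sites. The sequences come from RefSeq (GRCh38.p14) and run from 250 bases before to 50 bases after a start site. Of 51 member names 41 had an entry. The motifs, on both strands, were CACGTG, the NRF1 motif, the ETS-type CCGGAAGT and the YY1-type AANATGGC, none of which contains another. AANATGGC was found in 14 of 41 members (34.1%), against 13.5% of 8711 tested symbols with a promoter entry and 7.97% of all 27305 symbols. This motif contains ATG, and in NDUFS7, NDUFS6 and NDUFS4 it lies 17, 8 and 21 bases after the start site. Whether such matches are factor sites or first codons of the protein was not tested. CACGTG was found in 6 members (14.6%, against 13.1% of tested and 8.77% of all symbols), the NRF1 motif in 7 (17.1%, 14.1% and 6.98%) and CCGGAAGT in 2 (4.88%, 10.9% and 4.95%). Among the 28 named members that fell, 10 held AANATGGC and 4 held CACGTG, and of the other 13 members 4 and 2 did. The 2 others with CACGTG were NDUFB2-AS1 and NDUFV2-AS1, which lay under the filter and were not tested. The tested members with a promoter entry outside the 28 held none. They are few, and only 13.1% of all tested symbols held CACGTG, so the groups are not compared. These counts are descriptions of letters in a window and were not tested.

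The promoters shown are those of the member with the lowest ratio (NDUFAF2), of the lowest core subunit (NDUFS7), and of a subunit that fell (NDUFS6) beside one that did not pass (NDUFS4). They lie at chr5:60944955-60945254, chr19:1383657-1383956, chr5:1801157-1801456 and chr5:53560389-53560688 in that order, all on the plus strand, and capitals mark the motifs.
NDUFAF2 promoter: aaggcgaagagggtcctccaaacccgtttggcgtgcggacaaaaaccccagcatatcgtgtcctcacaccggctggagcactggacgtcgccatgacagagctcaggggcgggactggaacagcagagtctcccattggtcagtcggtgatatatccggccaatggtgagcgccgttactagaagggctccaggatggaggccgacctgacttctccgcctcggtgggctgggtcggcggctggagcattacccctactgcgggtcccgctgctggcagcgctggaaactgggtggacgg
NDUFS7 promoter: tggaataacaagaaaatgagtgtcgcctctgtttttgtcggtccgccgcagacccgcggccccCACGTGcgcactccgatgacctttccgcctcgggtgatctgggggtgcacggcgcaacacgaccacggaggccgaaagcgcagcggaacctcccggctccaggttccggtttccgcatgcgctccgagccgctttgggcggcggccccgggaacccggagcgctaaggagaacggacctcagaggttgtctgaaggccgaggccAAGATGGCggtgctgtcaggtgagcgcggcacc
NDUFS6 promoter: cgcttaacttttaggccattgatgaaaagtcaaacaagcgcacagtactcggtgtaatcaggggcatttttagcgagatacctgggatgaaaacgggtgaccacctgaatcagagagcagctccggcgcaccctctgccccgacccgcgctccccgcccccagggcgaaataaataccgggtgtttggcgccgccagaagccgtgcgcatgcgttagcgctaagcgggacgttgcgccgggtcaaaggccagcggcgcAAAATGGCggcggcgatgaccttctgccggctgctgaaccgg
NDUFS4 promoter: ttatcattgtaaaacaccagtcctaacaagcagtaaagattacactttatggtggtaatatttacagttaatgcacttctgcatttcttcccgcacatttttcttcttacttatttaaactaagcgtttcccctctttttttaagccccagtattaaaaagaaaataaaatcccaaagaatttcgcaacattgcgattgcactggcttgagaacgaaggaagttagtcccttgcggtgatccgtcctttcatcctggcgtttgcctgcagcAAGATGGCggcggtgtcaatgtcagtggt
NDUFAF2 holds none of the 4 motifs in this window. NDUFS7 holds CACGTG upstream and AANATGGC just after the start site, and NDUFS6 and NDUFS4 each hold AANATGGC just after it. NDUFS6 and NDUFS4 were shown because 1 fell and the other did not pass, and what their shared motif does was not tested.

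In control cells no complex I gene differed 2-fold between DMS and PBS. The median log2 difference of DMS minus PBS was -0.01 over the 47 members (-0.04 over all genes), 21 members were above 0 and 26 below (41.3% and 58.7% of all genes), and none was 2-fold lower or higher (0.393% and 0.0804% of all genes). The range ran from NDUFAF1 at -0.43 to NDUFA4L2 at 0.37. NDUFV3 was at 0.29 and NDUFB8 at 0.20, and on the low side NDUFAF4 was at -0.23, NDUFAF6 at -0.19 and NDUFA5 at -0.18. The core subunits ran from -0.12 for NDUFS3 to 0.06 for NDUFV1. Succinate feeds electrons into the chain at succinate dehydrogenase, beside complex I, and the 4 SDH subunits had a median of 0.05.

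In knockdown cells most members were higher in DMS than in PBS, and so was MYC, at 625 against 17.1 FPKM. Of 47 members 44 were above 0 (50.6% of all genes), with a median of 0.34 (0.00 over all genes). On log2(FPKM + 1), 2 were at least 2-fold higher (4.93% of all genes) and none 2-fold lower (0.456%). NDUFAF2 was 6.98-fold higher in DMS, a log2 difference of 2.71 that was the 17th highest of all genes tested. NDUFS5 was 2.13-fold higher, and NDUFB6, NDUFAB1 and NDUFAF4 followed with log2 differences of 0.95, 0.80 and 0.80. At the other end NDUFA6-AS1 was at -0.19, NDUFS4 at -0.13, NDUFAF6 at -0.05 and NDUFAF3 at 0.02. For 41 members the knockdown in DMS lay above the knockdown in PBS and below both controls, against 37.2% of all genes tested. This comparison and that of the knockdown in PBS share the library of the Myc shRNA in PBS, so a low value there enters both.

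**Figure D4:**
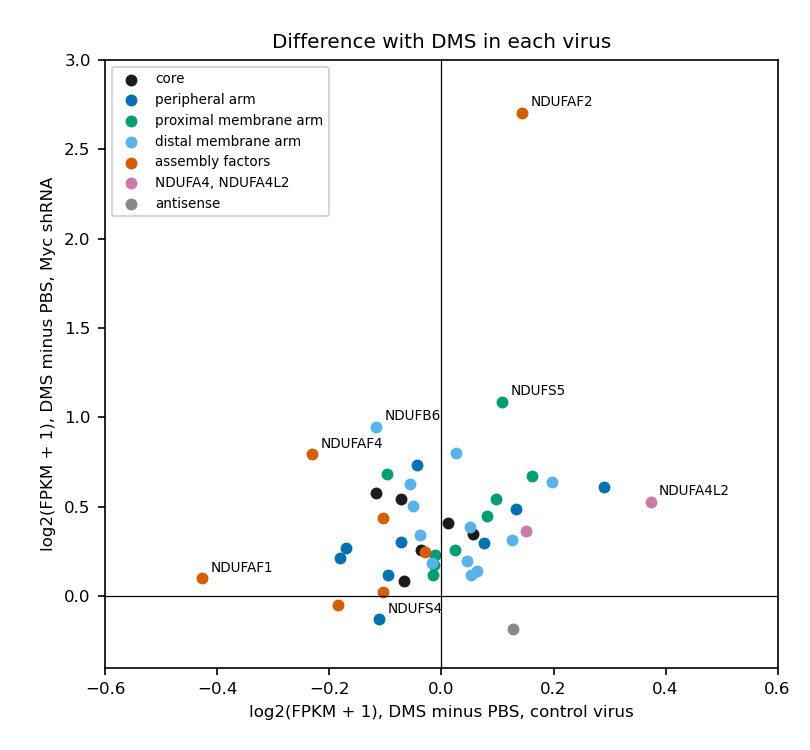
Log2 difference of DMS minus PBS on log2(FPKM + 1) in control virus cells (horizontal) and in Myc shRNA cells (vertical) for 46 complex I rows coloured by role, 1 library per group. Most points lie above 0 vertically (43 of 46) and spread around 0 horizontally, and NDUFAF2 stands highest at 2.71.

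Over both viruses, limma called no member for DMS, in a fit that also did not call MYC. It called 0 of 47 members and 0 of 11188 genes in either direction (0% of all genes), with 3 members and 12.8% of all genes at an unadjusted p under 0.05. The 3 were NDUFAF2 (1.42, adjusted p = 0.367 by limma), NDUFV3 (0.45, adjusted p = 0.355 by limma) and NDUFA4L2 (0.45, adjusted p = 0.322 by limma). With the virus term dropped and the control library in PBS left out, the only PBS library was that of the Myc shRNA, with MYC at 17.1 FPKM. That fit cannot tell DMS from virus, and no result is drawn from it. A response to DMS that differs between the viruses enters the residual of this fit, and with 1 library per group the interaction has no test.

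The order of the members was similar in both media. The knockdown differences in PBS and in DMS, which share no library, had a Spearman correlation of 0.92 across the 47 members and 0.96 across all 11188 genes, given as a description since genes are not replicates. The level in the control library in DMS and the knockdown difference in PBS had a Spearman correlation of -0.32 across the members. Among the core, the 3 accessory groups and the assembly factors, the medians in PBS lay between -0.74 for the peripheral arm and -0.99 for the core.

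Other mitochondrial gene lists were lower in knockdown cells too. In PBS the median log2 difference was -1.04 for the 4 SDH subunits, -1.06 for 9 rows of complex III, -0.86 for 11 of complex IV, -0.94 for 16 of complex V and -1.14 for 79 of mitochondrial ribosomal proteins. In DMS these medians were -0.53, -0.62, -0.48, -0.54 and -0.61. By limma 3 of 4, 7 of 9, 9 of 11, 12 of 16 and 66 of 79 of them fell and none rose, beside 33 of 47 complex I members. Of all genes 27.8% fell and 27.9% rose. NDUFAF2, at -3.77, was lower in PBS than the lowest row of any of these lists, which was -3.05 in complex V. No test of a difference between lists was made.

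**Figure D5:**
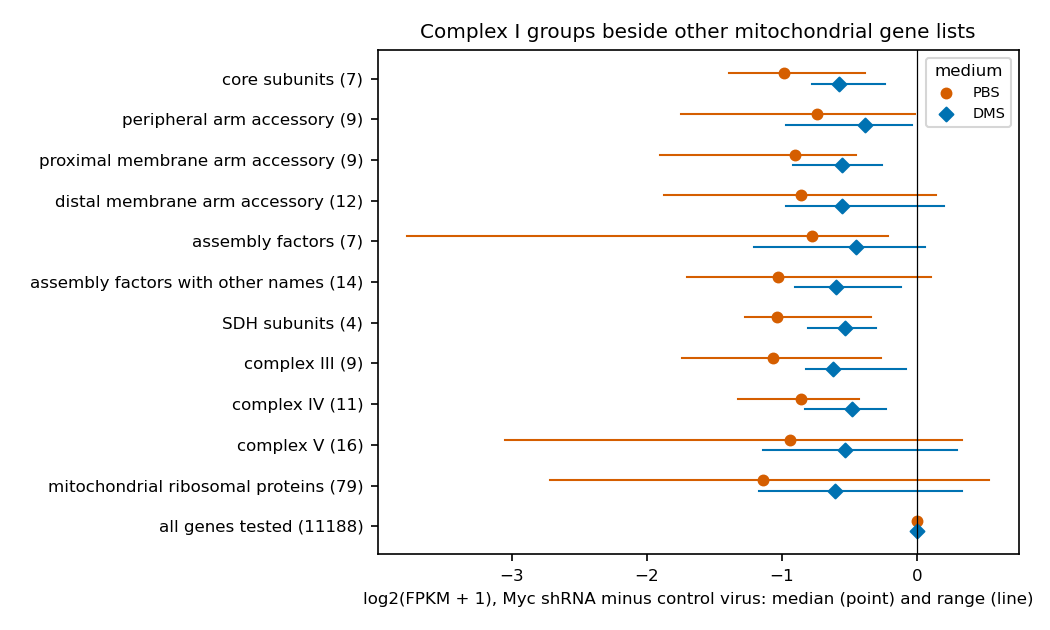
Median (points) and range (lines) of the log2 difference on log2(FPKM + 1), Myc shRNA minus control virus, in PBS (orange circles) and DMS (blue diamonds), for complex I groups and other lists, with the number of rows tested in brackets. For all genes tested only the medians, both 0.00, are drawn; the assembly factors extend farthest left, to -3.77 in PBS.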

How the data were processed

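RNA libraries of CA46 cells, 1 for each of 4 groups, were analysed from the deposited tables. The authors deposited FPKM values, read as such from the values and from the column names that Cuffdiff writes, although the titles speak of read counts. Per the submitters' processing notes the tools included fastp, TopHat2 2.1.0 and Cuffdiff 2.2.1, with builds hg19 and dm6; which tool made which file, the annotation and the strand setting are not stated there. Coordinates of genes are those of the deposited tables, counted from 1, and 18 members share a locus with another row, so their span covers several genes.

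Unnamed rows (3919 of 31016, 14.3% to 25.2% of summed FPKM) and 2038 small RNA symbols were left out, rows of a symbol were summed and joint rows kept. Each library was divided by a scale factor, the trimmed mean log2 ratio against the average library over genes of at least 1 FPKM, cutting 30% of the ratios and 5% of the levels from either tail. The factors were 1.05, 1.04, 0.954 and 0.962. FPKM in the text is rescaled. Differences are on log2(FPKM + 1), a scale on which low genes change less. The fit was limma 3.58.1 (R 4.3.3) with an intensity trend (5.14 prior degrees of freedom). It was also run on simulated data with independent noise, no interaction and few changed genes. These libraries differ from that setting, so no error rate follows for them. Count tests could not be used on FPKM. Genes named by rule are the core subunits, all assembly factors, members under the filter, those with the 8 lowest and 6 highest knockdown ratios in PBS, and those with the 4 highest and 4 lowest DMS ratios in knockdown cells; most other members are given by their estimates, and the 4 levels of NDUFV3, NDUFA12, NDUFA3, NDUFA4, NDUFA4L2, the joint NDUFC2 row and ERCC8 were added after their values were seen. For 1 member, kept in every fit and count, values are not reported here and figures leave it out. The members and lists were chosen with earlier results of these data known.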

Additional observations from a re-analysis of the deposited data

Results flagged for a closer look

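NDUFAF4 had differences of opposite sign with DMS in the 2 viruses. The log2 difference of DMS minus PBS was -0.23 in control cells (9.71 to 8.13 FPKM). It was 0.80 in knockdown cells (2.03 to 4.27 FPKM), where MYC was 36.7-fold higher with DMS as well. Among 11188 genes the control value was only the 1674th lowest, and it was smaller in size than the fitted SE of 0.25 for DMS. Each difference rests on 1 pair of libraries, and the difference between the viruses was not tested. NDUFAF4 was the only one of the 47 members with opposite signs of at least 0.2 in size, a limit chosen for this comparison. The share of all genes meeting this limit was not counted, so how unusual this is cannot be judged. RefSeq lists 4 named pseudogenes of NDUFAF4.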

How the results depend on the processing

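The number of members that fell over both media was 33, and 13 with no filter on low values; it lay between 23 and 36 under deposited FPKM, median ratio scaling, a pseudocount of 0.1, joint rows left out, no medium term and no intensity trend. Leaving out 1 library at a time, with virus as the only term, gave 0 to 39 members that fell and 0 to 1 that rose, and for DMS, with medium as the only term, 0 to 1 that rose. In PBS, 1 member (NDUFA6-AS1) was 2-fold higher with a pseudocount of 0.1. In DMS, 5 members were 2-fold lower with FPKM as deposited and 2 with a pseudocount of 0.1, against 1. Between DMS and PBS in knockdown cells, 3 members were 2-fold higher with a pseudocount of 0.1, against 2. In the knockdown fit the deposited scaling put the all-gene median at a shift of -0.11. Over fits that leave out 1 library the log2 estimate ran from -3.84 to -1.14 for NDUFAF2, from -1.96 to -0.87 for NDUFS5, from -0.20 to 0.04 for NDUFAF7, from -0.30 to 0.01 for NDUFB1 and from -0.092 to 0.04 for NDUFS4. The sign changed without the knockdown in PBS for NDUFAF7 (0.0393) and NDUFB1 (0.0126), and without the control in PBS (0.0291) or the knockdown in DMS (0.0386) for NDUFS4; these 3 had not passed. The cause was not tested. Of 34 calls 34 were kept with deposited scaling, 24 without the medium term and 14 with no filter. With medium as a term, the main fit compared knockdown and control within each medium. Beyond that, no pairing of cultures was possible, because each group holds 1 library and the labels carry no replicate numbers. Depth is known only as an estimate, which limits the antisense genes and NDUFA4L2 most.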
